A study of Homo sapiens with 6 samples.

Results

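The genes described here carry a human cell through mitosis, the division of its duplicated chromosomes, and were followed in SUM149, an established line grown from an inflammatory breast cancer. The 55 genes were listed by function (mitotic cyclins and kinases, spindle checkpoint, kinetochore, kinesin, cytokinesis, anaphase and chromosome condensation genes), with no measured value in the rule, and all 55 were measured, among 19775 genes tested in all. They were covered by 106 probe sets, and each gene was taken from 1 of them, whichever had the highest mean signal. The siTIG1 group (3 arrays) came from cells transfected with an ON-TARGET Plus siRNA pool against TIG1, whose current symbol is RARRES1. The siControl group (3 arrays) came from cells given a siGENOME non-targeting pool, and its array siControl 3 is also set against siControl 1 and 2. Both pools were given at 200 nmol/L with oligofectamine, in cells grown with serum, insulin and hydrocortisone, and the sources used here do not give the time between transfection and harvest. The pools differ in product line as well as in target, and the effects of line and target cannot be told apart. All 6 arrays came from 1 cell line, and no label says whether the replicates of a group were separate cultures, so a p-value here speaks only for the spread among these arrays, possibly a technical one.

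Entry into mitosis is driven by the kinase CDK1 bound to cyclin B, which is switched on by CDC25 phosphatases and Polo and Aurora kinases. The spindle, built with the help of kinesin motors, then attaches to the kinetochores, and a checkpoint delays anaphase until every chromosome is attached. The anaphase-promoting complex (APC/C) ends this state by marking cyclin B and securin for destruction. Most of these genes are transcribed late in the cycle. In non-dividing cells they are held off by the DREAM complex, and in G2 they are switched on by MuvB bound to B-MYB and FOXM1. Both forms of MuvB bind a short promoter element, the cell cycle genes homology region (CHR), and the factor NF-Y binds the CCAAT box found near it in many of these promoters. The level of these transcripts in a culture is therefore widely used as a readout of how many of its cells divide. In RNA from a whole culture, fewer cells in G2 or M and less of a transcript per such cell cannot be told apart.

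Promoters of members are shown because these elements are what the list is known to share and the list was not chosen by sequence. The promoter table, from RefSeq (build GRCh38.p14), gives 250 bases before and 50 after a gene's start and held 48 of the 55 members. FOXM1, AURKA, BIRC5, BUB3, TTK, TPX2 and UBE2C had no entry there. For the CCAAT box the letters searched were CCAAT itself, which read ATTGG where the box lies on the opposite strand. For the CHR one form searched was TTTGAA, which a CHR lying on the opposite strand shows as TTCAAA. A further CHR form was TTCGAA, which reads the same on both strands. The promoters printed are those of SPC25 and KIF20A, among the members with the largest difference on siControl 3, KIF11, ESPL1 and MKI67, with the largest falls in siTIG1 cells, and CKS1B, with small differences in both comparisons. Capitals mark these letters, and each sequence runs in the direction of transcription.

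SPC25, chr2:168890381-168890680, minus strand: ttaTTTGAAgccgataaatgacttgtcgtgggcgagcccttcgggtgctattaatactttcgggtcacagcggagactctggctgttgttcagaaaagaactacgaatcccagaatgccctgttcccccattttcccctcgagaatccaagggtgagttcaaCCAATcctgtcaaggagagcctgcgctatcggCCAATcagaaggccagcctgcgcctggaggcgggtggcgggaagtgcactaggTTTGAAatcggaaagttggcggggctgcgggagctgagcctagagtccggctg

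KIF20A, chr5:138178862-138179161, plus strand: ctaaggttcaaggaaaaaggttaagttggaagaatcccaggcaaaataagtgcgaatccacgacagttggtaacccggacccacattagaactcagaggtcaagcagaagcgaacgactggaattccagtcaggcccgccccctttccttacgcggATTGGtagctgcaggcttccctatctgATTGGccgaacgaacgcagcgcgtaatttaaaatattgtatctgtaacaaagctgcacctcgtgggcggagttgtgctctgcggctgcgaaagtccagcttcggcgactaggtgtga

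KIF11, chr10:92592880-92593179, plus strand: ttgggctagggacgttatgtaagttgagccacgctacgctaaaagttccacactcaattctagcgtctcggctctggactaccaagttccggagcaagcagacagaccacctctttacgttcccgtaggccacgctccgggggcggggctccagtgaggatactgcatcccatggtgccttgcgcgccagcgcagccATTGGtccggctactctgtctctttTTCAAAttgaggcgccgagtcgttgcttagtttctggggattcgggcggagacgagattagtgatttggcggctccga

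ESPL1, chr12:53268049-53268348, plus strand: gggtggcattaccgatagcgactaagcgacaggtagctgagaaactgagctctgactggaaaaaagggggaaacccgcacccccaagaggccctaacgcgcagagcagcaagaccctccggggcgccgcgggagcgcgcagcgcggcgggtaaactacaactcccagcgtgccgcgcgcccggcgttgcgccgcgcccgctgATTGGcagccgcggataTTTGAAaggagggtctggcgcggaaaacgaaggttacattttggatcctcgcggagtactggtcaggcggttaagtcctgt

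MKI67, chr10:128126374-128126673, minus strand: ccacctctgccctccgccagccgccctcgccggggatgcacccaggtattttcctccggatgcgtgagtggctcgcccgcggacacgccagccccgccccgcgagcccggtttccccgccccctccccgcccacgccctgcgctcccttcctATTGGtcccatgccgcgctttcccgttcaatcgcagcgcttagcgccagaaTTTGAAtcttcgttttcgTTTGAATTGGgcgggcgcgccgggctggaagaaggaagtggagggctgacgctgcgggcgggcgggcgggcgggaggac

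CKS1B, chr1:154974431-154974730, plus strand: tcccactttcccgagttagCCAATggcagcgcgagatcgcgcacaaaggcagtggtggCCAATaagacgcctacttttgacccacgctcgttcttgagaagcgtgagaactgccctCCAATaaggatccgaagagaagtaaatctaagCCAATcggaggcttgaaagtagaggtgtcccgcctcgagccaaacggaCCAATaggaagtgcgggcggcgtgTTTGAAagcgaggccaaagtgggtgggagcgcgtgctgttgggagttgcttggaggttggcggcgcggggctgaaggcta

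CCAAT letters stood in a promoter of 38 of the 48 members (79.2%), against 39.7% of the 27305 genes in the table. A gene counts where any of its promoters holds the letters, and 9 members had more than 1. Over all 35116 promoters in the table, of the same length, the shares were 34.6% for CCAAT, 16.4% for the CHR and 6.38% for both. CHR letters also stood in 38 members (79.2%), against 19.5% of all genes, and both stood in the same promoter of 29 members (60.4%), against 7.85% of all genes. In 33 members (68.8%) CHR letters began within 50 bases of the start, against 6.24% of all genes. The 2 sets of letters overlapped in promoters of 2 members, as in MKI67, where a CHR runs into an ATTGG. Of the letters searched, KIF2C and CENPE held neither set in their window, and KIF20A held CCAAT only. Other letter forms of the CHR were not searched, so a member without these letters may still hold a CHR. The split that follows is by the letters searched, not by a known CHR. The median difference of siControl 3 from siControl 1 and 2 was -0.73 over the 38 members with CHR letters and -0.83 over the 10 without. That of siTIG1 from siControl 1 and 2 was -0.21 with them and -0.13 without. There 21 of the 38 and 3 of the 10 were called lower, where 14.9% of all genes were. Neither pair of medians nor the counts were tested, and 10 genes are too few to compare these shares. CKS1B, with 5 CCAAT and 1 CHR, had one of the smallest differences on siControl 3 (-0.16), and in siTIG1 cells it was at 0.11 without passing. A match of letters is a description of the window and is not a measured binding site.

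Pearson correlations across all probe sets were 0.998 to 0.999 within the siTIG1 group and 0.998 between siControl 1 and 2, but 0.985 between siControl 3 and each of the other controls, lower than the 0.992 to 0.993 between the siTIG1 arrays and siControl 1 and 2. The signal at the 3' end minus that at the 5' end of ACTB, a measure of how complete the RNA is, was 2.14 to 2.34 on the siTIG1 arrays, 3.21 on siControl 3 and 2.62 to 2.73 on siControl 1 and 2 (log2); for GAPDH it was 0.46 to 0.47, 0.57 and 0.46 to 0.48. The targeted gene RARRES1 was brightest on siControl 3 on each of its 3 probe sets, and on the brightest of them it read 12.69, 11.95 and 11.87 on siTIG1 1 to 3, 13.74 on siControl 3, and 12.65 and 12.61 on siControl 1 and 2, so that siTIG1 1 was not below siControl 1 and 2. On the second it read 11.72, 10.95 and 10.95 on the siTIG1 arrays, 13.55 on siControl 3, and 11.89 and 11.88 on siControl 1 and 2. On the last it read 10.72, 10.03 and 9.96 on the siTIG1 arrays, 12.58 on siControl 3, and 11.04 and 10.92 on siControl 1 and 2, so that siTIG1 1 lay below siControl 1 and 2 on these probe sets. The part of RNA quality in the differences reported here was not tested. Of 8 basal epithelial markers measured for the labelled cell line, 7 lay above the median gene level of 8.74. KRT5 averaged 12.72, EPCAM 14.36 and EGFR 12.34, while KRT14 (8.49) lay below that level. These markers were not level across arrays. Relative to siControl 1 and 2, they ran from -1.05 (KRT14) to 1.74 (EGFR) on siControl 3. In siTIG1 cells they ran from -0.86 (EGFR) to 0.84 (KRT19). EGFR read 11.61, 11.59 and 11.67 on the siTIG1 arrays, 14.22 on siControl 3, and 12.47 and 12.49 on siControl 1 and 2. Among hormone receptors and ERBB2, ESR1 (8.86) and ERBB2 (9.36) lay above it and PGR (6.91) below. PTPRC of leukocytes (6.68), LUM of fibroblasts (5.01) and CDH5 of endothelium (5.78) were far below it. Of 4 leukocyte, 6 fibroblast and 5 endothelial markers measured, 1, 1 and 2 lay above the median gene. Their summed levels were 30.1 to 30.2, 45.9 to 46.7 and 39.3 to 39.5 on the siTIG1 arrays, 31.0, 47.0 and 39.3 on siControl 3, and 29.3 to 29.6, 46.0 to 46.4 and 38.9 to 39.1 on siControl 1 and 2. Among the leukocyte, fibroblast and endothelial markers CD14 of leukocytes moved most. It read 8.48, 8.48 and 8.37 on the siTIG1 arrays, 8.95 on siControl 3, and 7.67 and 7.62 on siControl 1 and 2. The part of all these markers in the results was not tested.

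Levels are the deposited log2 signals, so a difference of 1 is a factor of 2. Differences carry their sign and are siTIG1 minus siControl 1 and 2, or siControl 3 minus the mean of siControl 1 and 2. Every member lay above the median gene level of 8.74, and the median member stood at the 91.8th percentile of all genes. The dimmest by this measure was SPC25, at the 57.6th percentile. Such ranks are rough, since probe sets bind unequally, and signals of single genes are not compared with each other.

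Over all 6 arrays nearly all mitosis genes missed the threshold between siTIG1 and siControl cells. With limma (Benjamini-Hochberg adjusted p under 0.05 over 19775 genes) 1 member fell, UBE2S, and 0 rose, where 4.17% of all genes fell and 3.15% rose, 7.32% in all. At an unadjusted p under 0.05 there were 3 members (UBE2S, CDC25B and CKS1B), against 21.9% of all genes. The median difference was 0.10, from -0.33 for UBE2S to 0.80 for KIF20A. The siTIG1 and siControl values overlapped in all but 6 members. UBE2S and CDC25B were lower on every siTIG1 array than on every siControl array (15.4% of all genes were), and NUSAP1, HMMR, CKS1B and KIF20A were higher (16.6% of all genes).

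The control group was itself split. On siControl 3 all 55 members were lower than the mean of siControl 1 and 2, where 45.6% of all genes were. By 2-fold or more, 16 members (29.1%) were lower, against 2.01% of all genes, and 0 were higher by as much, against 1.51%. The median difference was -0.75 over the members and 0.02 over all genes, with a range of -2.20 (SPC25) to -0.09 (KIF18A), while siControl 1 and 2 differed from each other by a median of 0.04 and at most 0.23 in size. Of the 55 members, 51 (92.7%) had their lowest of the 6 values on siControl 3 (28.4% of all genes did), the others being CDC25B, CDC25C, UBE2S and KIF18A. This is 1 array, so its difference is a description with no test, and it was singled out with earlier results of these data known.

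Against siControl 1 and 2 alone, the siTIG1 cells had lower levels of 26 members (47.3%) by limma's adjusted p, and higher levels of 0, where 14.9% of all genes fell and 12.3% rose. The other 29 did not pass. Differences were negative in 46 members (83.6%), against 43.9% of all genes, with a median of -0.17 over the members and 0.02 over all genes, and they were small: the range was -0.44 (ESPL1) to 0.18 (KIF20A), a factor of at most 1.36. All 3 siTIG1 arrays lay below both controls in 36 members (65.5%), against 24.4% of all genes, and above both in 4 (7.27%), against 28.4%. In 33 members (60.0%) the siTIG1 arrays lay between the others, below siControl 1 and 2 and above siControl 3, a pattern of 6.56% of all genes. Since 51 members were lowest on siControl 3, this count of 33 largely restates the 36 and is not separate support. The comparison here and the one above share siControl 1 and 2. Their values are therefore given side by side, and beyond that count no relation between them is drawn. Of the 26 calls, 24, 23 and 24 held when siTIG1 1, 2 or 3 was left out, 19 without siControl 1 and 13 without siControl 2. The last pair of runs leave 1 control array, whose spread is assumed to be that of the siTIG1 arrays. Without siControl 2 the calls of BIRC5, CDC25C, CDCA8, CDK1, CENPF, ECT2, KIF15, NCAPG, NCAPH, NDC80, PLK1, PLK4 and SMC4 were lost, and without siControl 1 those of CDCA8, CDK1, ECT2, KIF14, NCAPH, PLK1 and SMC4. BIRC5, CDCA8, CDK1 and PLK1 were also lost without at least 1 siTIG1 array.

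**Figure D1:**
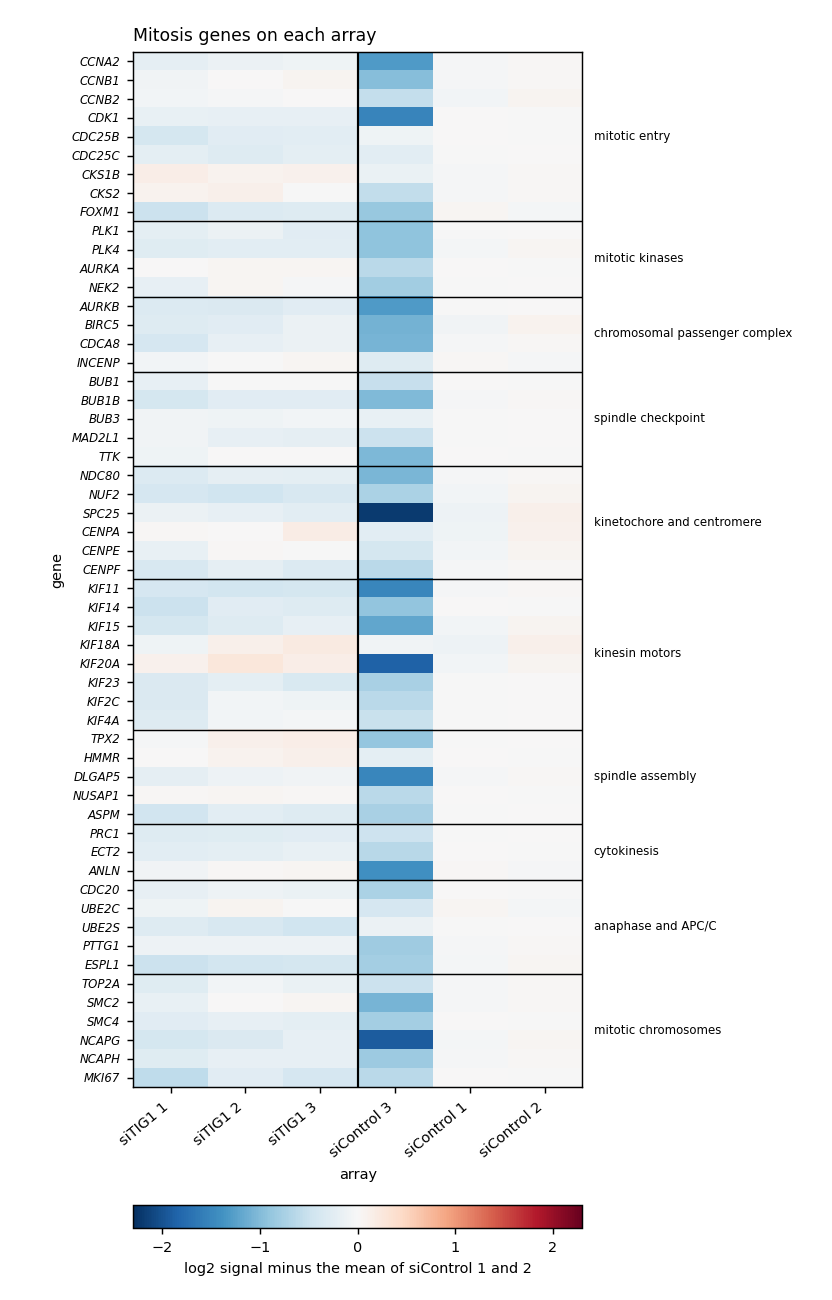
Log2 signal of each of the 55 mitosis genes (rows, by role) on each array (columns) minus the mean of siControl 1 and 2, in colour from dark blue (lower) to dark red (higher). The siControl 3 column is blue in every row, deepest for SPC25 at -2.20, and the 3 siTIG1 columns are pale, mostly on the blue side.

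The 9 genes that start mitosis had 4 falls in siTIG1 cells against siControl 1 and 2 (FOXM1, CDC25B, CDC25C and CDK1). Their median difference was -0.15, and on siControl 3 it was -0.56, with 2 lower by 2-fold or more (CDK1 and CCNA2). Of all genes, 14.9% fell in siTIG1 cells and 2.01% were lower by 2-fold or more on siControl 3. These shares apply beside the counts of every role below. Roles hold 3 to 9 genes, so their counts are descriptions and roles are not compared with each other. CDK1, the kinase that drives mitosis, measured 13.07, 13.06 and 13.06 on the siTIG1 arrays, 11.74 on siControl 3, and 13.26 and 13.24 on siControl 1 and 2. The siTIG1 arrays were lower than siControl 1 and 2 without overlap (-0.18 ± 0.05, SE, limma adjusted p = 0.020), while siControl 3 was at -1.51, a factor of 2.85 lower. The difference on siControl 3 was shared by all 4 CDK1 probe sets (-1.43 to -1.61), but that of the siTIG1 arrays was not, running from -0.18 to 0.06, and the call was lost in 6 of 13 alternatives, among them the mean of the 4 probe sets. CCNB1, cyclin B1, which binds CDK1, had 13.71, 13.79 and 13.85 on the siTIG1 arrays, 12.82 on siControl 3, and 13.76 and 13.82 on siControl 1 and 2. The siTIG1 arrays and siControl 1 and 2 overlapped (-0.01 ± 0.06, limma adjusted p = 0.96), and siControl 3 stood below them all, at -0.97. The other CCNB1 probe set, also bright, did not overlap. It read 13.26, 13.37 and 13.45 in siTIG1 cells, 12.91 on siControl 3, and 13.63 and 13.62 on siControl 1 and 2. Its difference in siTIG1 cells was -0.26 (limma p adjusted over all probe sets = 0.023), so the 2 CCNB1 probe sets disagreed.

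FOXM1, the transcription factor of late cell cycle genes, read 12.84, 13.02 and 13.04 on the siTIG1 arrays, 12.46 on siControl 3, and 13.37 and 13.29 on siControl 1 and 2. Its 3 siTIG1 values lay below siControl 1 and 2 and above siControl 3, and it fell by 0.36 ± 0.07 (SE, limma adjusted p = 0.0039) in siTIG1 cells, a factor of 1.29. CDC25B, a phosphatase that activates CDK1, differed in pattern: it had 12.59, 12.73 and 12.75 in siTIG1 cells, 12.89 on siControl 3, and 13.00 and 12.99 on siControl 1 and 2, so that siControl 3 lay near the other controls. CDC25B fell by 0.31 ± 0.06 (SE, limma adjusted p = 0.0055) in siTIG1 cells and was -0.11 on siControl 3. Cyclin A2 (CCNA2), the cyclin of S phase and early mitosis, was 1 of the members with a wide gap on siControl 3 (-1.31) and a small one in siTIG1 cells (-0.15 ± 0.05, limma adjusted p = 0.075). Cyclin B2 (CCNB2) was at -0.03 in siTIG1 cells without passing and at -0.54 on siControl 3, and the phosphatase CDC25C at -0.25 (limma adjusted p = 0.0062) and -0.24. With the mean of its 3 probe sets CDC25C did not pass in siTIG1 cells (-0.077, limma adjusted p = 0.32). CKS1B and CKS2, small subunits of cyclin-dependent kinases, had differences of 0.11 and 0.06 in siTIG1 cells, neither past the threshold, and -0.16 and -0.56 on siControl 3.

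Of 4 mitotic kinases, PLK1 and PLK4 fell in siTIG1 cells and AURKA and NEK2 did not pass, while on siControl 3 all 4 were at -0.61 to -0.93. PLK1, the Polo kinase of spindle assembly and mitotic exit, had 10.67, 10.75 and 10.62 in siTIG1 cells, 9.95 on siControl 3, and 10.88 and 10.89 on siControl 1 and 2. Every siTIG1 value lay between siControl 3 and the other controls, and the fall of 0.20 ± 0.06 (SE, limma adjusted p = 0.024) was lost in 5 alternatives. PLK4, which duplicates centrioles, was at -0.25 (limma adjusted p = 0.0059) in siTIG1 cells and -0.93 on siControl 3, and the centrosome kinase NEK2 at -0.05 and -0.80. AURKA, the Aurora kinase of the centrosome, had 13.94, 13.98 and 13.98 in siTIG1 cells, 13.32 on siControl 3, and 13.94 and 13.92 on siControl 1 and 2. Here the siTIG1 arrays and siControl 1 and 2 overlapped (0.03 ± 0.05, limma adjusted p = 0.70), and siControl 3 stood below them all, at -0.61.

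The chromosomal passenger complex, which corrects wrong attachments and directs cytokinesis, is AURKB with its partners INCENP, BIRC5 (survivin) and CDCA8 (borealin). Its kinase AURKB had 10.96, 10.94 and 11.02 in siTIG1 cells, 9.98 on siControl 3, and 11.26 and 11.29 on siControl 1 and 2. The 3 kinds of array did not overlap, and AURKB fell by 0.30 ± 0.05 (SE, limma adjusted p = 0.0023) in siTIG1 cells, with -1.30 on siControl 3. BIRC5 and CDCA8 also fell in siTIG1 cells, by 0.24 each (limma adjusted p = 0.031 and 0.045), calls that did not hold when some single arrays were left out, and they were at -1.08 and -1.07 on siControl 3. INCENP, the scaffold, was at -0.01 in siTIG1 cells and at -0.29 on siControl 3. Of 5 spindle checkpoint genes 1 fell in siTIG1 cells, a share near the 14.9% of all genes. It was BUB1B, the checkpoint protein BubR1 (-0.31, limma adjusted p = 0.0041), which was at -1.01 on siControl 3.

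The checkpoint kinase BUB1 had 10.88, 11.08 and 11.07 in siTIG1 cells, 10.54 on siControl 3, and 11.09 and 11.07 on siControl 1 and 2. Its adaptor BUB3 had 13.42, 13.41 and 13.45 in siTIG1 cells, 13.33 on siControl 3, and 13.49 and 13.51 on siControl 1 and 2. BUB1 overlapped between siTIG1 and siControl 1 and 2 (-0.07 ± 0.07, limma adjusted p = 0.50) and was -0.54 on siControl 3. BUB3 had the smallest gap of the 5 checkpoint genes on siControl 3 (-0.17), and its difference in siTIG1 cells did not pass (-0.08 ± 0.05, limma adjusted p = 0.29). For BUB1 and BUB3 some other probe sets had the opposite sign. TTK, the kinase MPS1 at the top of the checkpoint, was at -0.03 in siTIG1 cells but -1.04 on siControl 3, and MAD2L1, the checkpoint protein MAD2, at -0.15 and -0.49. MAD2L1 did not pass in siTIG1 cells (limma adjusted p = 0.079) but did in 5 alternatives, among them the mean of its 3 probe sets (-0.38, adjusted p = 0.0019). Singly these were at -0.15, -0.20 and -0.79, and only the last passed over all probe sets.

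Of 6 kinetochore and centromere genes 3 fell in siTIG1 cells (NUF2, CENPF and NDC80), with a median of -0.22, against -0.68 on siControl 3. NUF2, a subunit of the NDC80 complex that holds microtubules, had 11.48, 11.42 and 11.50 in siTIG1 cells, 11.14 on siControl 3, and 11.81 and 11.93 on siControl 1 and 2, with no overlap between the 3 kinds of array. It fell by 0.40 ± 0.06 (SE, limma adjusted p = 0.00079) in siTIG1 cells and was -0.73 on siControl 3. NDC80 itself fell by 0.24 (limma adjusted p = 0.0099) and was -1.05 on siControl 3. SPC25, another subunit of the same complex, had 9.55, 9.48 and 9.44 in siTIG1 cells, 7.48 on siControl 3, and 9.57 and 9.79 on siControl 1 and 2. This was the widest gap of any member on siControl 3, -2.20 or a factor of 4.61, and siControl 1 and 2 were themselves 0.22 apart. The siTIG1 values of SPC25 lay just below both (-0.19 ± 0.07) and did not pass (limma adjusted p = 0.081). That difference was -0.30 without siControl 1, where it passed (adjusted p = 0.027), and -0.080 without siControl 2 (adjusted p = 0.53).

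CENPF, a large protein of the G2 nucleus and outer kinetochore, measured 11.95, 12.11 and 12.01 in siTIG1 cells, 11.70 on siControl 3, and 12.30 and 12.34 on siControl 1 and 2. The 3 kinds of array were again in separate ranges, with a fall of 0.29 ± 0.06 (SE, limma adjusted p = 0.0059) in siTIG1 cells that was lost without siControl 2 (adjusted p = 0.056), and -0.62 on siControl 3. CENPA, the histone variant that marks the centromere, and CENPE, a kinetochore motor, were at 0.07 and -0.05 in siTIG1 cells, neither past the threshold, and at -0.24 and -0.40 on siControl 3.

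**Figure D2:**
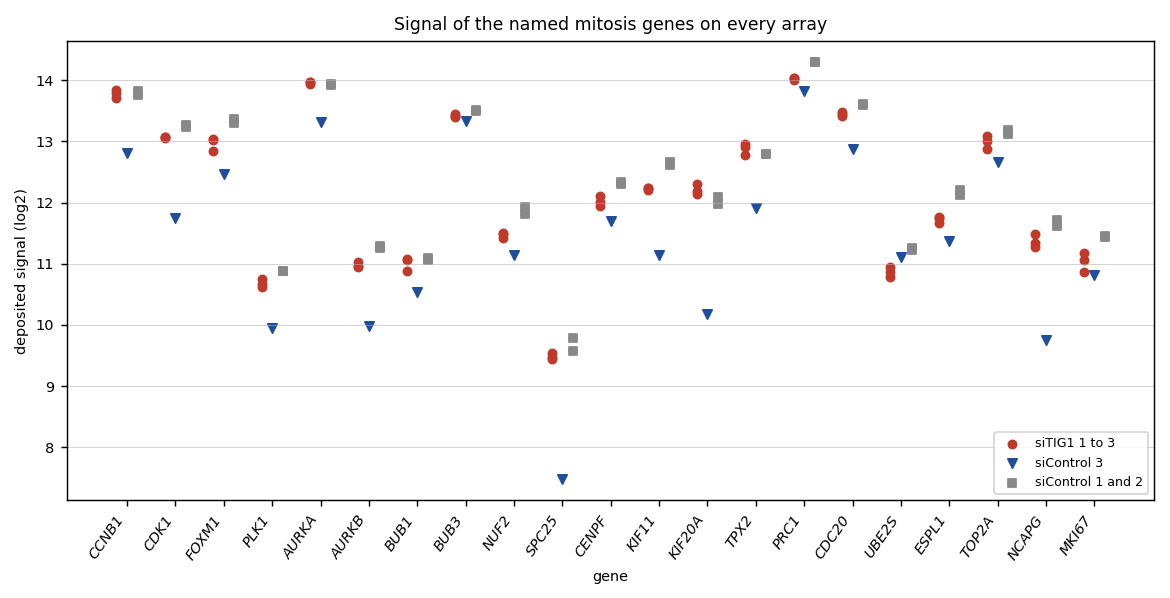
Deposited log2 signal of 21 members on every array: red circles are siTIG1 1 to 3, blue triangles siControl 3 and grey squares siControl 1 and 2. The blue triangle is the lowest point for every gene shown except UBE2S, and red circles sit below the grey squares for ESPL1, KIF11, NUF2 and MKI67 but overlap them for CCNB1 and AURKA.

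Of the 8 kinesin motors 4 fell in siTIG1 cells (KIF11, KIF14, KIF15 and KIF23), with a median of -0.23, against -0.82 on siControl 3. KIF11, the motor Eg5 that pushes the spindle poles apart, had 12.24, 12.21 and 12.24 in siTIG1 cells, 11.14 on siControl 3, and 12.62 and 12.66 on siControl 1 and 2. The siTIG1 values lay in a narrow band well apart from both sets of controls, a fall of 0.41 ± 0.05 (SE, limma adjusted p = 0.00032) or a factor of 1.32, while siControl 3 was at -1.50. KIF20A, a motor of the central spindle in cytokinesis, had another order, with 12.14, 12.30 and 12.20 in siTIG1 cells, 10.18 on siControl 3, and 11.98 and 12.09 on siControl 1 and 2. All 3 siTIG1 values were above every control value, by 0.18 ± 0.06 over siControl 1 and 2 without passing (limma adjusted p = 0.072), and siControl 3 was at -1.85, a factor of 3.62 lower. KIF14 and KIF23 of cytokinesis and KIF15 of the spindle fell by 0.35, 0.30 and 0.30 in siTIG1 cells (limma adjusted p = 0.0061, 0.0036 and 0.013) and were at -0.90, -0.74 and -1.20 on siControl 3. KIF2C, which takes microtubules apart, and KIF4A, which binds chromosomes, were at -0.17 and -0.14 in siTIG1 cells without passing and at -0.62 and -0.52 on siControl 3. KIF18A, which dampens chromosome movements, had the smallest difference of any member on siControl 3 (-0.09), less than the 0.23 between siControl 1 and 2.

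The 5 spindle assembly genes had 1 fall in siTIG1 cells, a share near the 14.9% of all genes, and a median of 0.03. The fall was that of ASPM, a spindle pole protein (-0.32, limma adjusted p = 0.0057). On siControl 3 the median of the 5 genes was -0.75, which is also the value of ASPM. TPX2, which activates AURKA on the spindle, had 12.78, 12.91 and 12.96 in siTIG1 cells, 11.92 on siControl 3, and 12.80 and 12.80 on siControl 1 and 2. The siTIG1 values overlapped those of siControl 1 and 2 (0.08 ± 0.06, limma adjusted p = 0.39), and siControl 3 was alone at -0.88. DLGAP5, a protein of the spindle fibres, NUSAP1, which bundles them, and HMMR, a hyaluronan receptor also found on the spindle, did not pass in siTIG1 cells (-0.14, 0.03 and 0.07) and were at -1.50, -0.62 and -0.22 on siControl 3. PRC1, which crosslinks the central spindle, had 14.00, 14.03 and 14.04 in siTIG1 cells, 13.82 on siControl 3, and 14.30 and 14.30 on siControl 1 and 2.

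PRC1 values of the 3 kinds of array were separate, with a fall of 0.28 ± 0.05 (SE, limma adjusted p = 0.0026) in siTIG1 cells and -0.48 on siControl 3. ECT2, which starts the cleavage furrow, fell by 0.21 in siTIG1 cells (limma adjusted p = 0.012) and was -0.65 on siControl 3. ANLN, anillin of the same furrow, was at -0.01 in siTIG1 cells, against -1.40 on siControl 3.

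Of 5 genes of anaphase and the APC/C 2 fell in siTIG1 cells, ESPL1 and UBE2S. ESPL1, separase, the protease that cuts sister chromatids apart, had 11.67, 11.74 and 11.76 in siTIG1 cells, 11.38 on siControl 3, and 12.13 and 12.21 on siControl 1 and 2. No values overlapped, and its fall of 0.44 ± 0.06 (SE, limma adjusted p = 0.00034) in siTIG1 cells, a factor of 1.36, was the widest among the members, with -0.79 on siControl 3. UBE2S, the enzyme that lengthens ubiquitin chains for the APC/C, had 10.94, 10.87 and 10.78 in siTIG1 cells, 11.11 on siControl 3, and 11.22 and 11.25 on siControl 1 and 2. In this gene the siTIG1 arrays, not siControl 3, were the lowest, and it fell both against siControl 1 and 2 (-0.37 ± 0.06, limma adjusted p = 0.0016) and with all 6 arrays (-0.33 ± 0.07, adjusted p = 0.039), the second call being lost in 8 of 14 alternatives.

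CDC20, which activates the APC/C, had 13.41, 13.48 and 13.45 in siTIG1 cells, 12.88 on siControl 3, and 13.61 and 13.59 on siControl 1 and 2. It was separated in the same order without passing in siTIG1 cells (-0.15 ± 0.05, limma adjusted p = 0.052) and was -0.72 on siControl 3. PTTG1, securin, the inhibitor of separase, was at -0.11 and -0.82, and UBE2C, the enzyme that starts ubiquitin chains, at -0.01 and -0.38.

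The 6 genes of mitotic chromosomes had 4 falls in siTIG1 cells (MKI67, NCAPG, SMC4 and NCAPH) and a median of -0.22, with -0.82 on siControl 3. MKI67, the Ki-67 protein of the chromosome surface, which is stained to count dividing cells in tumours, had 10.86, 11.18 and 11.06 in siTIG1 cells, 10.82 on siControl 3, and 11.45 and 11.44 on siControl 1 and 2. The siTIG1 1 array lay close to siControl 3, and the fall of 0.41 ± 0.08 (SE, limma adjusted p = 0.0055) in siTIG1 cells was seen on all 4 MKI67 probe sets (-0.37 to -0.48), with -0.63 on siControl 3. NCAPG, a subunit of the condensin that compacts chromosomes, had 11.27, 11.34 and 11.48 in siTIG1 cells, 9.75 on siControl 3, and 11.62 and 11.71 on siControl 1 and 2. Its gap on siControl 3 was the second widest (-1.91, a factor of 3.76), and its smaller fall of 0.30 ± 0.07 in siTIG1 cells (SE, limma adjusted p = 0.010) was lost without siControl 2 (adjusted p = 0.097).

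The other condensin genes SMC4, NCAPH and SMC2 were at -0.22, -0.22 and -0.04 in siTIG1 cells and at -0.79, -0.84 and -1.07 on siControl 3, the last of the siTIG1 differences not passing. TOP2A, the topoisomerase that untangles sister chromatids, had 12.87, 13.09 and 13.01 in siTIG1 cells, 12.66 on siControl 3, and 13.13 and 13.18 on siControl 1 and 2. It lay just below siControl 1 and 2 in siTIG1 cells without passing (-0.17 ± 0.07, limma adjusted p = 0.11), and at -0.49 on siControl 3. With the mean of its 3 probe sets it did pass (-0.29, adjusted p = 0.0024). That mean includes a probe set at -0.54 whose mean signal of 6.96 lay below the median gene level of 8.74. The others, which were brighter, were at -0.17 and -0.16 and did not pass over all probe sets (limma adjusted p = 0.15 and 0.074).

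**Figure D3:**
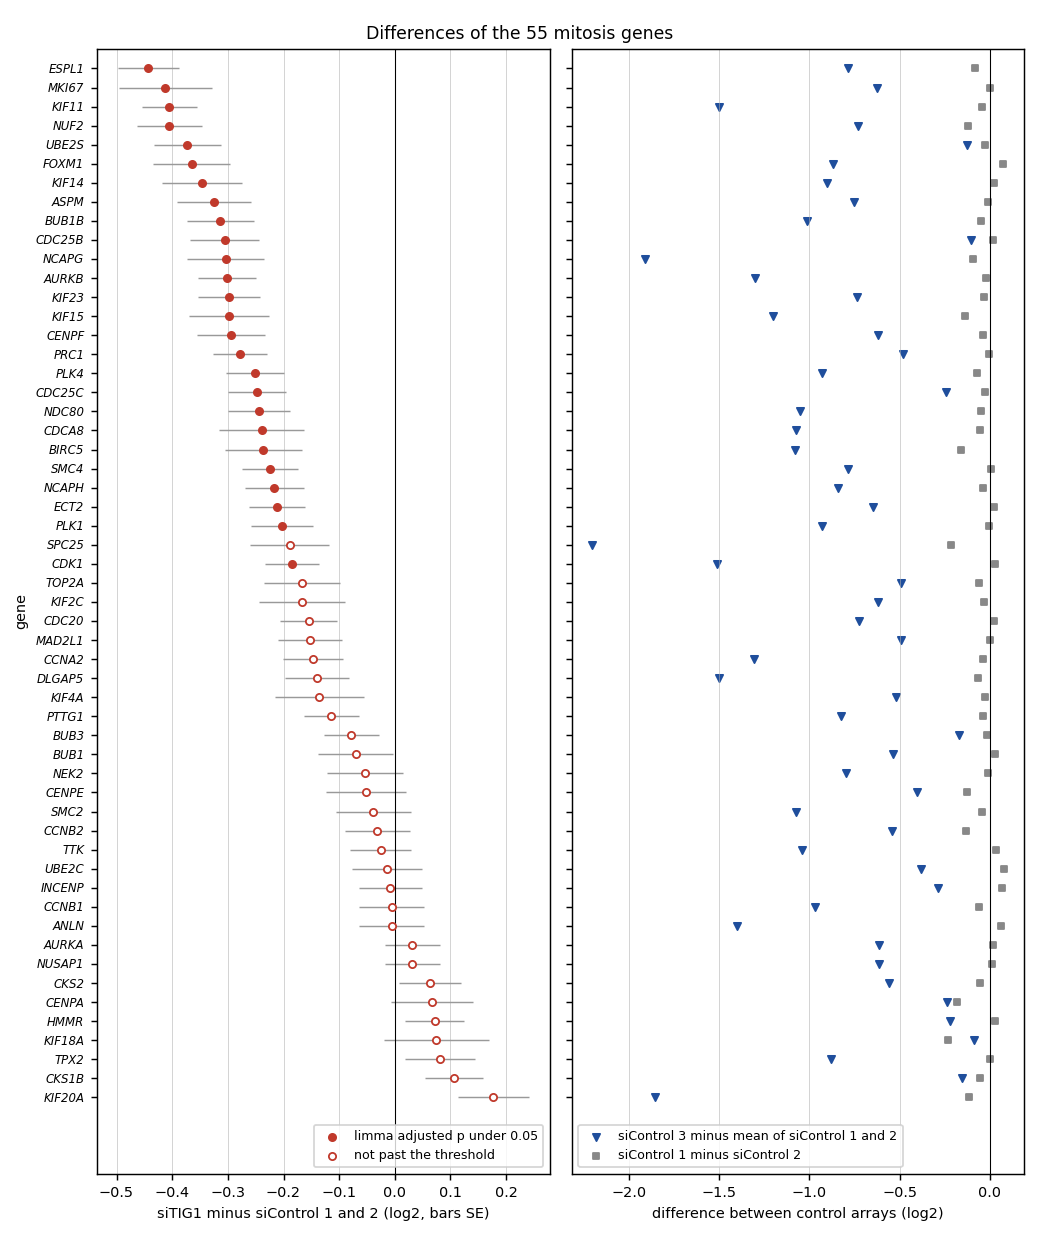
The 55 members in order of their log2 difference, siTIG1 minus siControl 1 and 2 (left, bars are SE, filled points are past limma's adjusted p of 0.05), beside siControl 3 minus the mean of siControl 1 and 2 (right, blue triangles) and siControl 1 minus siControl 2 (grey squares). On the left the points run from -0.44 for ESPL1 to 0.18 for KIF20A, and on the right the triangles run from -2.20 for SPC25 to -0.09 for KIF18A.

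Other probe sets of the same genes were also read. Over all 106 probe sets of the members 102 were lower on siControl 3 (47.5% of all 54613 probe sets were) and 24 by 2-fold or more (1.54%), and the exceptions were 1 each of BUB1 and BUB3 and 2 of CDC25C. Against siControl 1 and 2, 39 probe sets were lower in siTIG1 cells and 0 higher by limma's p adjusted over all probe sets, where 11.0% of all probe sets were lower and 7.87% higher. Of 28 members with several probe sets, 21 had the same sign on all of them in siTIG1 cells, and ANLN, AURKA, BUB1, BUB3, CCNB2, CDC25C and CDK1 did not.

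**Figure D4:**
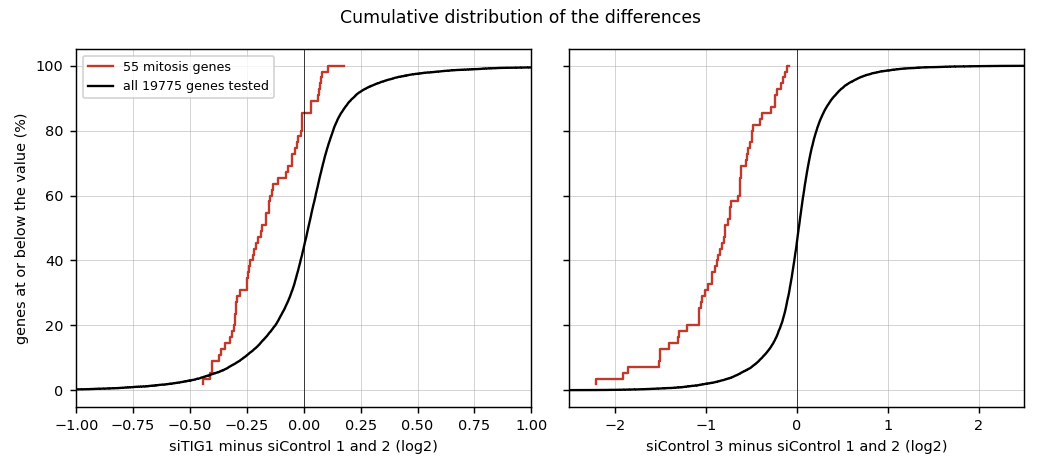
Cumulative share of genes (%) at or below each log2 difference, for the 55 members (red) and all 19775 genes tested (black), for siTIG1 minus siControl 1 and 2 (left) and siControl 3 minus siControl 1 and 2 (right). The red curve lies left of the black one through most of both panels, with medians of -0.17 and -0.75 against 0.02 and 0.02.

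Genes next to the members in the cell cycle were taken from lists of known function. Of 101 other mitosis genes measured, 50 (49.5%) fell and 3 (2.97%) rose in siTIG1 cells against siControl 1 and 2. Of all genes 14.9% fell and 12.3% rose there, and the median difference of the list was -0.15. On siControl 3, 26 of the list (25.7%) were lower by 2-fold or more, against 2.01% of all genes, with a median of -0.64. The 50 falls became 33 without siControl 1 and 30 without siControl 2. STIL, a centriole duplication protein, OIP5, which helps load CENPA, and SKA1, a kinetochore protein, had the widest falls (-0.65, -0.64 and -0.61, limma adjusted p = 7.7e-05, 4.6e-05 and 0.0029). SKA1 was dim, below the median gene level of 8.74 on every array, and read 7.63 on siControl 1 but 8.02 on siControl 2. Its difference ran from -0.80 to -0.41 when 1 array was left out. CENPW, a centromere protein, had the widest rise of the list, with 12.59, 12.64 and 12.62 in siTIG1 cells, 9.55 on siControl 3, and 11.12 and 11.14 on siControl 1 and 2. It rose by 1.49 ± 0.05 (SE, limma adjusted p = 3.9e-07) in siTIG1 cells, a factor of 2.81, while it was at -1.57 on siControl 3. The cohesin loader NIPBL and the kinetochore gene NSL1 rose by 0.42 and 0.24 (limma adjusted p = 0.0018 and 0.023), the second a call lost in 5 alternatives. With all 6 arrays CENPW and NIPBL were called as higher (limma adjusted p = 0.041 and 0.024) and PKMYT1, the kinase that holds CDK1 inactive, as lower (-0.34, adjusted p = 0.045). Leaving out most of the single arrays lost these 3 calls (limma adjusted p up to 0.16, 0.11 and 0.18).

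The S phase genes serve the copying of DNA before mitosis. Of 51 measured, 37 (72.5%) fell and 0 rose in siTIG1 cells against siControl 1 and 2, with a median of -0.25. Among all genes 14.9% fell and 12.3% rose there. Fewer S phase genes passed when siControl 1 or 2 was left out, as in the other lists. On siControl 3, 35 of the S phase genes (68.6%) were lower by 2-fold or more, against 2.01% of all genes, with a median of -1.17. Cyclin E2 (CCNE2), which opens S phase, had 11.26, 10.92 and 11.02 in siTIG1 cells, 7.63 on siControl 3, and 11.71 and 11.64 on siControl 1 and 2. That is a fall of 0.61 in siTIG1 cells (limma adjusted p = 0.00091) and -4.05 on siControl 3, wider than in any of the 55 members. CDC45 of the replicative helicase and POLA1 of the DNA polymerase that primes synthesis fell by 0.59 and 0.54 (limma adjusted p = 5.4e-05 and 6.3e-05).

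Of 21 genes of the regulators DREAM, MuvB and their partners (FOXM1 among them), 10 (47.6%) fell and 3 (14.3%) rose in siTIG1 cells against siControl 1 and 2, where 14.9% and 12.3% of all genes did, so the share of rises was near that of all genes. E2F5, a repressor E2F, fell by 0.78 in siTIG1 cells (limma adjusted p = 2.9e-05) and was higher by 1.13 on siControl 3, while MYBL1, a relative of B-MYB, and E2F8, another repressor E2F, fell by 0.49 each (limma adjusted p = 0.0033 and 0.0011) and were at -1.42 and -1.70 there. RBL2, the p130 pocket protein of DREAM, TFDP2, a partner of E2Fs, and NFYB, a subunit of the factor that binds CCAAT, rose by 0.38, 0.43 and 0.18 (limma adjusted p = 0.00064, 0.00056 and 0.043). The calls of MYBL1 and TFDP2 were lost with the mean of probe sets and that of NFYB in 7 alternatives. With all 6 arrays RBL2 and TFDP2 were called (limma adjusted p = 0.034 and 0.017), calls lost when most single arrays were left out (adjusted p up to 0.14 and 0.090).

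Among 22 genes of G1 and of cell cycle inhibitors there were 9 rises (40.9%) and 3 falls (13.6%) in siTIG1 cells against siControl 1 and 2, where 12.3% and 14.9% of all genes rose and fell, so the share of falls was near that of all genes. BTG1, an antiproliferative protein, and the cyclins CCNG2 and CCNG1 rose by 0.77, 0.57 and 0.40 (limma adjusted p = 0.00016, 7.4e-05 and 0.00042), and were higher by 0.85, 0.26 and 0.24 on siControl 3. Cyclin D1 (CCND1), which starts the cycle, and cyclin D3 (CCND3) fell by 0.67 and 0.35 (limma adjusted p = 1.9e-05 and 0.0012). CDKN1A, the p21 inhibitor of cyclin-dependent kinases, had 10.82, 10.83 and 10.85 in siTIG1 cells, 12.40 on siControl 3, and 11.21 and 11.23 on siControl 1 and 2. The siTIG1 arrays were below siControl 1 and 2 and siControl 3 above them. CDKN1A fell by 0.39 in siTIG1 cells (limma adjusted p = 0.00039) and was higher by 1.18 on siControl 3. CDKN1B, the p27 inhibitor, rose in siTIG1 cells (0.39, limma adjusted p = 0.0023) and was at 0.07 on siControl 3; it and CCNG2 were the 2 genes of this list called with all 6 arrays (limma adjusted p = 0.032 and 0.026), and both calls were lost when most single arrays were left out (adjusted p up to 0.15 and 0.13).

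**Figure D5:**
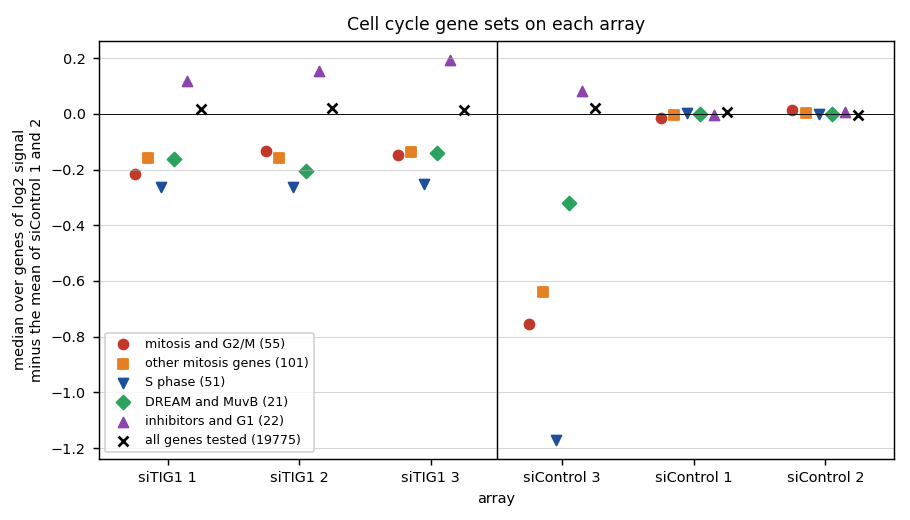
Median over the genes of each list of the log2 signal minus the mean of siControl 1 and 2, for each array. The mitosis genes are at -0.22, -0.13 and -0.15 on siTIG1 1 to 3 and at -0.75 on siControl 3, S phase genes lie below them on all 4 arrays, and the inhibitor and G1 list lies above 0.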

How the data were processed

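RNA of SUM149 cells was hybridised to Affymetrix HG-U133 Plus arrays as biotin-labelled cRNA, per the labels' protocols, and the sample titles give each array's group and replicate number. The authors' deposited table holds 1 log2 signal per probe set and array. MAS5 and RMA are named in the submitters' processing notes, and the sources used here do not give which of them made the deposited log2 signals. The log base is not written and was taken as 2, since values run from 4.28 to 15.59. Array medians lay between 7.87 and 7.90 and sorted arrays differed by at most 0.093, so the values were already normalized between arrays and cannot show a shift shared by most genes. There is no detection call, and the number of arrays limits the precision.

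Of 54675 probe sets, 62 controls were left out, and 41091 had 1 gene symbol in the platform annotation, 1801 several and 11721 none listed. The probe set with the highest mean stood for each gene, which gave 19775 genes. FOXM1, CENPA and PTTG1 rest on a probe set ending in x_at, which can bind several transcripts. The test was limma's moderated one (version 3.58.1, R 4.3.3), 2-sided, with no block in the model and p-values adjusted by Benjamini-Hochberg over all 19775 genes (threshold 0.05), run once with all 6 arrays and once without siControl 3. The fit was also tested on simulated data in which 200 genes were changed, fewer than were called here. Without siControl 3 it recovered 2% of changes of 0.2 (log2) and 80% of those of 0.5. With all 6 arrays these shares were 0% and 68%. With fewer changed genes the Benjamini-Hochberg cutoff is stricter, so these shares do not give the sensitivity of the fits to the arrays. Without siControl 3, for instance, CDK1 passed there at -0.18. Apart from the simulation, a member that did not pass is not shown to be unchanged.

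The members, gene lists, tests and the comparison without siControl 3 were chosen with earlier results of these data known. Values of every array are given for 15 members taken by role, the 6 widest falls and the 4 widest gaps on siControl 3, and values for up to 3 genes per list and direction. CDC25B, also given on every array, and PKMYT1 and CDKN1B, which complete a count, were chosen after their values were seen, as were the other members named only by their differences. Alternatives were a replicate block, median centring, quantile normalization, leaving out the dimmest 25% of genes, avoiding x_at probe sets, the mean of probe sets, a trended robust fit, array weights and leaving out each array. Same-numbered arrays did not deviate together from their group means (correlations of -0.081, 0.023 and -0.039). The siControl mean includes siControl 3, which stood apart, so this check cannot tell whether same-numbered arrays were handled together.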

Additional observations from a re-analysis of the deposited data

How the results depend on the processing

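The differences on siControl 3 changed little: the members' median of -0.75 was -0.78 after median centring and -0.79 to -0.75 when siControl 1 or 2 was left out, 54 to 55 members were lower in these runs, and 16 members lower by 2-fold became 37 at 1.5-fold and 14 to 17 with 1 control left out. With all 6 arrays, the 1 member called lower became 0 with a replicate block, with quantile normalization and with the trended robust fit, 12 with array weights, and 0 to 26 when 1 array was left out, the 26 being without siControl 3. The 1448 genes called there became 238 with the replicate block, 5134 with array weights and 222 to 5375 when 1 array was left out. Against siControl 1 and 2, the 26 falls became 13 to 25 when 1 array was left out and 24 with the replicate block, with 3448 to 5453 genes called in all against 5375, or 4683 with the block. The rises, 0, became 1 with the trended robust fit and with array weights and 0 to 1 when 1 array was left out, in each case KIF20A. Of the 26 falls, 12 (ASPM, AURKB, BUB1B, CDC25B, ESPL1, FOXM1, KIF11, KIF23, MKI67, NUF2, PRC1 and UBE2S) passed under all 13 alternatives, and CDC25C, CDCA8, CDK1 and PLK1 were lost in at least 1 that kept every array. CCNA2, CDC20, MAD2L1, PTTG1, SPC25 and TOP2A, which had not passed, passed as falls in at least 1.

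Members near 0 changed sign. With quantile normalization CCNB2 was 0.0087, INCENP 0.0031, TTK 0.032, ANLN 0.0077, UBE2C 0.024 and SMC2 0.0033. With the mean of probe sets CCNB2 was 0.027 and ANLN 0.0076, and with array weights CCNB1 was 0.0062, INCENP 4.2e-05, ANLN 0.0085 and UBE2C 0.0083. When 1 array was left out, CCNB1 ran from -0.038 to 0.032, CCNB2 from -0.096 to 0.033, NEK2 from -0.10 to 0.0099, INCENP from -0.041 to 0.024, TTK from -0.044 to 0.0087, CENPE from -0.12 to 0.012, ANLN from -0.037 to 0.033, UBE2C from -0.054 to 0.030, SMC2 from -0.076 to 0.024, CENPA from -0.024 to 0.16 and KIF18A from -0.041 to 0.19. The cause of these shifts was not tested. Dim probe sets have no detection call, which limits what their signs show.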
